A study of Mus musculus with 2 samples.

Results

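Cycling hair matrix cells of mouse dorsal skin were compared between a control and a testosterone propionate (TP) library. They were chosen by their own transcripts. A cell had to carry a unique molecular identifier (UMI, a count of 1 captured RNA molecule) of at least 3 of the 7 cell cycle genes Mki67, Top2a, Knl1, Aspm, Kif14, Neil3 and Cenpf. It also needed at least 1 UMI of the 4 matrix genes Hoxc13, Msx2, Edar and Shh, and fewer than 3 of the 5 dermal papilla genes Fgf10, Corin, Trpm3, Vcan and Rspo2. After barcodes outside 200 to 8000 genes or above 10% mitochondrial UMIs were dropped, 6338 of 62289 cells met this rule, 4613 of 42244 in control and 1725 of 20045 in TP. The levels of these 16 genes are therefore a description of the choice and carry no test.

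The study models androgenetic alopecia, hair loss driven by androgen, in male C3H/HeN mice whose backs were shaved at 7 weeks of age. The TP mice received testosterone propionate, a long-acting testosterone ester, under the skin at 0.5 mg per day, the control mice received vehicle alone, and the skin was taken at 9 weeks. Skin of 15 mice per group was pooled, dissociated and read as 1 droplet library each, so animals cannot be told apart and no value has a replicate. A further group, which also received an antibody, was not analysed here. Intervals are given at 95% and reflect counting error alone, so the spread among mice or dissociations is not in them. Differences are described by their size, and no p-value was computed.

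The hair matrix is the ring of fast-dividing epithelial cells around the dermal papilla at the base of a growing follicle. Its daughters move up and become the inner root sheath, which moulds the hair, or the hair shaft itself, while matrix cells answer to WNT, BMP, Hedgehog, EDAR and Notch signals. Hoxc13 and Msx2 encode homeobox transcription factors needed for hair keratin expression, Edar encodes the receptor of ectodysplasin, and Shh encodes the Hedgehog ligand made on one side of the matrix. When a follicle leaves its growth phase the matrix is lost and division stops. Mki67 encodes the Ki-67 antigen of dividing cells, Top2a encodes the topoisomerase that untangles chromosomes, Knl1 and Cenpf encode kinetochore proteins, Aspm a spindle pole protein, Kif14 a mitotic kinesin and Neil3 a DNA repair glycosylase.

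Both libraries differed in depth, and the rule reads depth. The members held 21179640 UMIs in control and 22128286 in TP. UMIs per member were 502 at the lowest, 3460 at the median and 39710 at the highest in control, against 768, 11254 and 74100 in TP. Where a share of cells is given at 2000 UMIs, every cell with at least that many was thinned at random to that number. Cells with fewer were left out, which kept 3852 control and 1705 TP members. Members called as doublets made up 13.9% in control and 10.1% in TP, and they were kept because the rule keeps them. Among all kept cells the procedure calls a fixed 7.5% per library, so called doublets were more common among members. They had median depths of 5425 UMIs in control and 17568.5 in TP, against 3168.5 and 10665 in the other members. Members with at least 1% of their UMIs in the epidermal keratins Krt1, Krt5, Krt10 and Krt14, called keratin-rich here, were 5.51% in control and 13.5% in TP, and 176 and 76 members lay near that limit, between 0.7% and 1.4%. Members with 3 or more markers of melanocytes, fibroblasts, endothelial, immune, smooth muscle or Schwann cells were 4.01% and 25.04%, counted at full depth, which was greater in TP. At least 2 fibroblast genes were seen in 8.498% and 54.03% of members at full depth and in 3.12% and 9.44% at 2000 UMIs. Only 1 barcode was shared between the members of both libraries.

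RNA free in the suspension adds UMIs of a gene to cells that do not make it. Levels outside the follicle epithelium were read from endothelial or immune cells, defined by at least 2 of 4 endothelial or 3 of 6 immune markers and not members, of which 260 control and 598 TP cells were kept. At 2000 UMIs each, 156 control and 483 TP cells of this kind remained. A matrix gene UMI was found in 11.5% of the control and 3.11% of the TP cells, against 31.5% and 26.2% of cells with 3 cycling genes. Cells of this kind that met the rule are counted as members and are not among them. They can also make a gene themselves, and some barcodes may hold a matrix cell as well, so their levels are not a measure of free RNA alone. Levels are given in counts per 1000000 UMIs of the summed cells (CPM). Where levels of these cells are given beside a result, control comes first, and their part in the results was not tested.

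Cycling hair matrix cells made up a smaller share of the TP library. By the rule at full depth the share was 10.9% (10.6 to 11.2) in control and 8.61% (8.22 to 9.002) in TP, so TP over control was 0.788 (0.745 to 0.833). At equal depth the gap was wider. Every cell that reached 2000 UMIs was thinned to that number, and the rule was applied to the thinned counts. Cells under 2000 UMIs, 18918 in control and 3003 in TP, were left out. Of the rest, 1955 of 23326 control and 538 of 17042 TP cells were members. That is 8.38% (8.03 to 8.74) in control and 3.16% (2.899 to 3.43) in TP. The ratio was then 0.377 (0.342 to 0.415), and it was 0.327 (0.277 to 0.384) at 1000 UMIs and 0.427 (0.389 to 0.468) at 5000 UMIs. At 1000 UMIs 36882 control and 19154 TP cells remained, and at 5000 UMIs 5780 and 10260. These ratios thus differ from 0.788 in the cells compared as well as in depth. Without called doublets, taken out of members and other cells alike, TP over control was 0.823 (0.776 to 0.873). Other limits changed the size of the gap at full depth. It was 0.907 (0.847 to 0.9699) with a mitochondrial limit of 5%, and 0.948 (0.8896 to 1.01) with 4 cell cycle genes asked for, an interval that includes 1. Removing keratin-rich members, or members with 3 markers of another cell type, takes cells from the members alone and a larger share of them in TP, so it lowers the ratio by construction.

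The share of cycling cells as a whole was also lower in TP. Cells with at least 3 of the 7 cell cycle genes were 27.5% (26.98 to 28.1) in control and 12.1% (11.6 to 12.6) in TP at 2000 UMIs. Of endothelial or immune cells, 6.41% in control and 3.11% in TP passed the same criterion. Among all cycling cells at that depth, members were 30.4% (29.3 to 31.6) in control and 26.1% (24.2 to 28.1) in TP, TP over control being 0.858 (0.779 to 0.945). At full depth the order turned, with 37.05% and 49.2% of cycling cells being members. Asking for 2 matrix genes in place of 1 also turned the order at full depth, to 2.84% (2.68 to 3.001) in control and 3.65% (3.396 to 3.92) in TP. At 2000 UMIs the same stricter rule gave 1.496% (1.34 to 1.66) in control and 0.575% (0.467 to 0.7004) in TP, TP over control being 0.384 (0.304 to 0.482). The direction therefore differed between full and equal depth for both of these alternatives. The comparison at equal depth, which leaves out the shallower cells, put TP below control under the original rule and the stricter one.

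**Figure D1:**
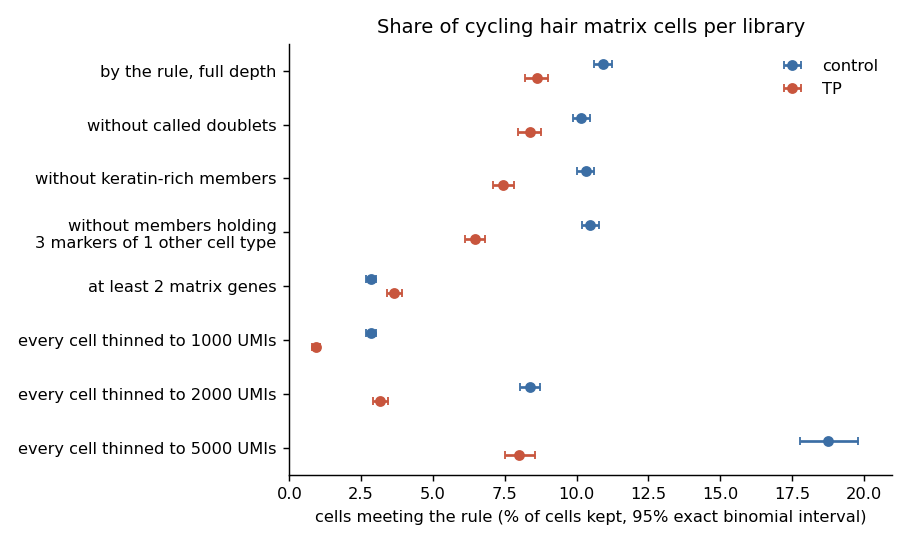
Share of cells meeting the rule in each library (x axis, percent of cells kept) under each setting (y axis), with exact binomial intervals. In the thinned rows only cells that reached the depth are counted. TP sits left of control in every row except the one asking for at least 2 matrix genes at full depth, where it stood at 3.65% against 2.84%.

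Most members rested on few matrix UMIs. A single matrix gene was seen in 74.01% of control and 57.6% of TP members, and 57.7% and 37.4% had exactly 1 matrix UMI. Members with 2 or more matrix genes were 25.99% and 42.4%, and their median depths were 4581 and 12736 UMIs. At least 5 of the 7 cell cycle genes were seen in 41.8% and 64.1%. Just inside the limit, 1444 control and 300 TP members had exactly 3 cell cycle genes. Just outside, 2090 and 515 cells with a matrix UMI had 2 cell cycle genes, and 6975 and 1719 cycling cells had no matrix UMI. The papilla criterion kept 433 control and 31 TP cells out, with median depths of 6964 and 18450 UMIs.

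The 4 matrix genes marked partly different members. In control, 1144 members carried Hoxc13 alone, 1195 Msx2 alone, 637 Edar alone and 438 Shh alone, and in TP these were 353, 336, 240 and 64. Shh alone was thus 9.49% of control and 3.71% of TP members. Hoxc13 and Msx2 were found together in 523 control and 411 TP members. Of the members with Shh, 29.97% in control and 47.5% in TP also held Edar, and 17.3% and 35.7% held Hoxc13. Shares of co-detection grow with depth, so the TP values are not comparable with the control ones.

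All 11 genes that the choice asked for had a lower level per UMI in TP members. Mki67 stood at 989.6 CPM (976 to 1003) in control and 801 (789 to 812) in TP. Top2a stood at 989 CPM (976 to 1003) in control and 860.03 (848 to 872) in TP. These are the cell cycle genes with most UMIs, and their levels were closest between the libraries together with Cenpf, at 512 and 431. The other 4 lay further apart. Knl1 was at 303 CPM (296 to 311) in control and 209 (203 to 215) in TP, and Aspm at 155 CPM (149.98 to 161) in control and 110.1 (106 to 115) in TP. Kif14 was at 79.6 and 48.2 and Neil3 at 91.5 and 58.97. Members were chosen at full depth, where a deeper cell can meet the rule at a lower level per UMI. The choice itself therefore favours lower levels in TP, for the matrix genes below as well. The part of depth in these differences was not tested.

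Among the matrix genes, Hoxc13 was at 137 CPM (132 to 142) in control and 97.5 (93.5 to 102) in TP. Msx2 was at 114 CPM (109 to 118) in control and 67.7 (64.3 to 71.2) in TP. Edar was at 87.9 CPM (83.9 to 91.95) in control and 60.1 (56.96 to 63.5) in TP, and Shh at 74.03 CPM (70.4 to 77.8) in control and 41.3 (38.7 to 44.1) in TP. At 2000 UMIs, with the members still those chosen at full depth, Hoxc13 was seen in 24.4% of control and 18.7% of TP members. Msx2 was seen in 23.2% of control and 14.4% of TP members. Edar was seen in 17.2% of control and 13.7% of TP members and Shh in 12.3% of control and 7.04% of TP members. In endothelial or immune cells at the same depth the shares were 5.13% and 2.07% for Hoxc13, 5.77% and 0.621% for Msx2, 1.28% and 0.414% for Edar and 0.641% and 0.207% for Shh. Mki67 was found in 33.3% and 11.2% of those cells, against 80.97% of control and 74.7% of TP members. UMIs of Mki67 were thus more common outside the members in the control library. The members held 61.1% of all Edar UMIs of the control library and 68.7% of the TP library, and 49.5% and 62.01% of those of Shh.

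**Figure D2:**
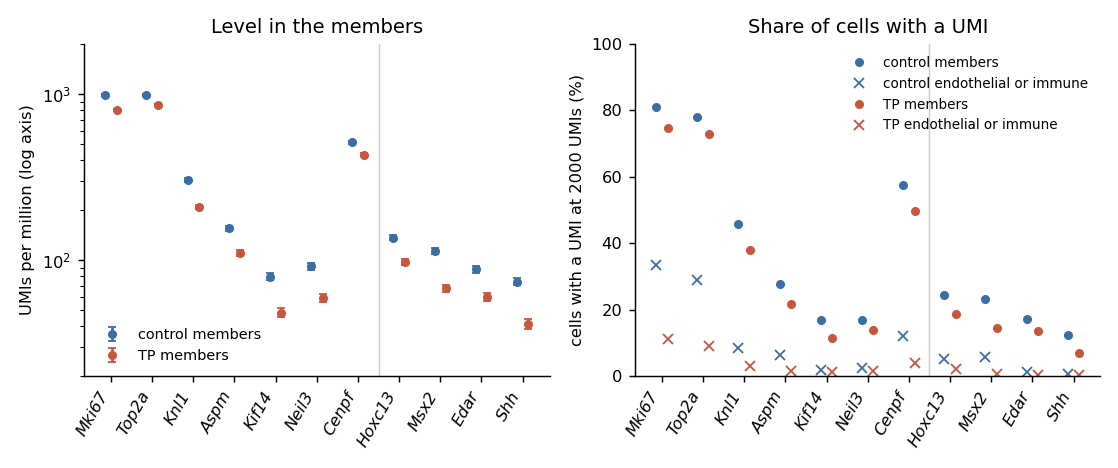
Left, level of each gene of the rule in the members (y axis, CPM on a log scale, with exact Poisson intervals). Right, percent of members chosen at full depth (dots) and of endothelial or immune cells (crosses) with a UMI at 2000 UMIs each. Every TP dot lies below its control dot, and the crosses for Mki67 reach 33.3% in control and 11.2% in TP.

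The promoters of the cell cycle genes were searched for letters known from genes switched on late in the cycle, and 3 are shown because they differ in what they hold. The CCAAT box (CCAAT on either strand) is bound by NF-Y, and the CHR element (TTTGAA on either strand, or TTCGAA, which reads alike on both) by the DREAM and MuvB complexes. A CCAAT box and a CHR may share an end letter. In the 250 bases before the start, RefSeq promoters of GRCm38.p6 held a CCAAT box in 33.8% and a CHR in 17.1% of all 32851. All 7 cell cycle genes of the rule matched, and 5 held a CCAAT box, 4 a CHR and 3 both (Mki67, Top2a and Kif14). Aspm and Cenpf held a CCAAT box without a CHR, Neil3 a CHR without a CCAAT box, and Knl1 neither. Of 39 promoters of 37 genes in the list of G2/M genes, 71.8% held a CCAAT box, 35.9% a CHR and 30.8% both, against 6.02% of all promoters with both. Among the promoters of all genes measured in members the shares were 35.4%, 12.3% and 4.82%. The 150 bases before each start follow, 5′ to 3′ in the direction of the gene, with these motifs in capitals. The windows are chr7:135716380-135716529 on the minus strand for Mki67, chr11:99024190-99024339 on the minus strand for Top2a and chr1:139454623-139454772 on the plus strand for Aspm. A match is a description of letters, not a bound site.
Mki67: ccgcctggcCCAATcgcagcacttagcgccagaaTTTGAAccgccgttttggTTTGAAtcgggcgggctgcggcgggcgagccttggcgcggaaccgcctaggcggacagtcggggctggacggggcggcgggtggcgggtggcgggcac
Top2a: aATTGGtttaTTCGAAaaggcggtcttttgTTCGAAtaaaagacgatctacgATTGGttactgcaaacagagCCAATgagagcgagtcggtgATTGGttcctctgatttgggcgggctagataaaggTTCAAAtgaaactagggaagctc
Aspm: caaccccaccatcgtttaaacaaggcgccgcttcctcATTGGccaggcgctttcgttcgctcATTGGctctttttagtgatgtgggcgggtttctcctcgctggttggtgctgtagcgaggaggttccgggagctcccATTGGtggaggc

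The name was checked with 10 matrix transcription factors that the rule did not use, of which Hoxc12 had too few UMIs to be measured. Lef1, the DNA-binding partner of β-catenin in the matrix, was at 902 CPM in control and 539.5 in TP in the members. It was at 488 and 141 in cycling cells without a matrix UMI and at 242 and 50.6 in endothelial or immune cells. Dlx3, a homeobox factor upstream of hair keratins, was at 155 in control and 135 in TP. The other cycling cells held 137 and 51.5 of it and endothelial or immune cells 51.9 and 17.3. Msx1, Sox21 and Mycn were likewise higher in the members than in either set in both libraries. Foxn1, whose loss gives nude mice, Ovol1 and Cux1 were above endothelial or immune cells in both libraries, and slightly below the other cycling cells in control but above them in TP. Trps1 was at 522 in control and 341 in TP, against 367 and 403 in endothelial or immune cells, so it does not set the TP members above them. At 2000 UMIs, Lef1 was seen in 68.5% and 54.8% of members and 26.9% and 5.59% of endothelial or immune cells. Of the 9 factors, 6 were above the other cycling cells in both libraries and 8 above endothelial or immune cells in both. Among all 27 matrix transcription factors measured, 1 was at least 2-fold above the other cycling cells in both libraries, so these factors set the members apart from endothelial or immune cells more than from other cycling cells. The keratin-rich members held 408 and 177 CPM of Lef1 against 961 and 651 in the others.

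Set beside other cells, the members were close to the remaining cycling cells and far from matrix cells that did not cycle. These values come from the cells the rule split and are given without a test. Against 8694 cycling cells without a matrix UMI, 68 genes (0.565% of 12033) were at least 2-fold higher in both libraries and 60 (0.499%) at least 2-fold lower. The 10 largest were Slc13a5, Tnf, Acsm3, Necab1, Pm20d1, Dsg4, Bmp8a, Scube1, Adamts3 and Tspear. Dsg4, the desmosomal cadherin of the hair shaft, was at 63.9 in control and 21.6 in TP in members and 21.98 and 2.94 in the other cycling cells. Tspear, a secreted protein whose loss impairs hair and teeth, was at 53.7 in control and 42.5 in TP against 20.8 and 9.501. Tnf, the inflammatory cytokine, was at 15.6 in control and 26.98 in TP against 4.26 and 4.597, and endothelial or immune cells stood at 13.5 and 25.2.

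Against 601 cells with 2 or more matrix genes and no cell cycle gene of the rule, 670 genes (5.57%) were at least 2-fold higher and 320 (2.66%) at least 2-fold lower in both libraries. All 44 genes of the G2/M list and 34 of the 40 replication genes were among the higher ones. Choosing cells without a cell cycle gene favours this by construction. The 10 largest were Parpbp, Cit, Kif18a, Efcab11, Kif20b, Ect2, Mastl, Cep55, Ckap2 and Ankle1. Most of these act in mitosis: Cit (citron kinase), Ect2 and Cep55 in the cleavage of the cell, Kif18a and Kif20b as kinesins, and Mastl as the kinase that holds cells in mitosis. Cit stood at 107 in control and 69.8 in TP in the members and 5.59 and 0.692 in the matrix cells without a cycling gene. The hair shaft genes ran the other way, summing to 764 and 300.3 CPM in members against 4831 and 4443. Spinous genes summed to 4582 and 11074 in members against 3678 and 20152. The cells without a cycling gene also needed 2 matrix genes where members needed 1, so both sets differ in more than division.

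Between the libraries, 401 of 12033 genes with at least 100 UMIs were at least 2-fold higher in TP members (3.33%) and 427 at least 2-fold lower (3.55%). The median log2 ratio of TP over control over all genes was -0.17. With TMM factors, which rescale the libraries to each other, every log2 ratio shifted by 0.20, which moved the counts to 585 higher and 252 lower, or from 48.4% to 69.9% higher among the calls. Choosing the members at equal depth, on counts thinned to 2000 UMIs, gave 165 higher and 329 lower (33.4% higher), of which 92 and 166 were among the original calls. That choice kept 1955 control and 538 TP members, and the number of genes measured among them is not given here. The split between directions thus depended on the scaling and on the choice of members, and the gene lists below are read against these shares of all genes.

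Division genes are part of what chose the members, so their levels are given as a description. Of 40 replication genes none was past 2-fold in either direction, with a median log2 ratio of 0.30 and 33 above 0, against -0.17 and 4483 of 12033 above 0 for all genes. Pcna, the sliding clamp of DNA polymerase, was at 109.9 in control and 202 in TP, a log2 ratio of 0.87, and Gins2, a part of the replicative helicase, at 14.1 in control and 24.7 in TP, a log2 ratio of 0.80. Rrm2, which makes deoxynucleotides, was at 65.6 in control and 104 in TP, a log2 ratio of 0.66. Pola1, the catalytic subunit of polymerase alpha, was at 235 in control and 201 in TP, a log2 ratio of -0.22. The list summed to 2602 and 3056 CPM, a ratio of 1.17 (1.16 to 1.19).

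None of the 44 G2/M genes was past 2-fold either, with a median of 0.0088, 23 above and 21 below 0. Ube2c, the ubiquitin-conjugating enzyme of the anaphase-promoting complex, was at 142 in control and 229 in TP, a log2 ratio of 0.69, while Cenpe, a kinetochore motor, was at 337 in control and 256 in TP, a log2 ratio of -0.40. Cdk1, the mitotic kinase, was at 79.5 in control and 103 in TP, a log2 ratio of 0.38, and Hmgb2, a chromatin protein of dividing cells, at 1253 in control and 1614 in TP, a log2 ratio of 0.37. UMIs of these genes were more common outside the members in control, where the list summed to 1507 and 906 CPM in endothelial or immune cells, against 6244 and 6698 in members. Without keratin-rich members the medians were 0.51 for replication and 0.16 for G2/M genes.

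S phase members were more common in TP when members were chosen at full depth, and about as common in both libraries when they were chosen at equal depth. At 2000 UMIs each, S phase UMIs outnumbered G2/M UMIs in 17.8% (16.6 to 19.03) in control and 23.6% (21.6 to 25.7) in TP. The median share of S phase UMIs was 28% and 30.3% per member, so the bulk of both distributions overlapped. Members with 2 or more matrix genes gave 17.4% and 24.1%, and cycling cells without a matrix UMI 16.2% and 19.1%. When the members were chosen at 2000 UMIs, the shares were 12.5% (11.1 to 14.1) in control and 12.6% (9.95 to 15.7) in TP.

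**Figure D3:**
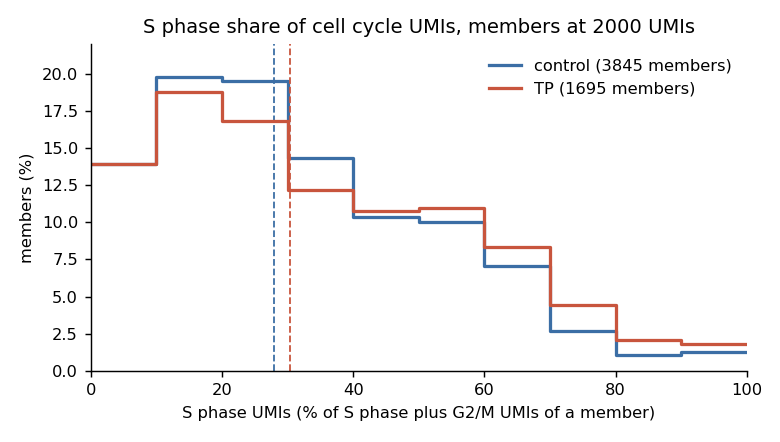
Percent of members (y axis) by the share of S phase among their S phase plus G2/M UMIs (x axis, in steps of 10 percentage points), for members chosen at full depth and thinned to 2000 UMIs. Dashed lines mark the medians, 28% in control and 30.3% in TP, and both curves peak below 30%.

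The G1 regulators were likewise within 2-fold, 0 of 18 past it in either direction, with a median of -0.052. Ccnd2, a cyclin D, was at 726 in control and 741 in TP, a log2 ratio of 0.029, and Cdk4, its kinase, at 151 in control and 202 in TP, a log2 ratio of 0.42. The lowest ratio was that of E2f3, an activating E2F, at 211 in control and 113 in TP, a log2 ratio of -0.91. Of 15 CDK inhibitors and p53 targets measured, 1 was past 2-fold. This was Bbc3, a p53-induced killer of cells, at 2.69 in control and 6.42 in TP, with 4.16 and 5.59 in endothelial or immune cells. Its log2 ratio of 1.24 was 0.37 with a pseudocount of 0.1 per 10000 UMIs. Cdkn1a, the p21 inhibitor, was at 196 in control and 248 in TP, a log2 ratio of 0.34, and Cdkn2a had too few UMIs to be measured. The endothelial or immune cells held 250.4 and 473 CPM of Cdkn1a, and without keratin-rich members its log2 ratio was -0.25.

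Among 27 transcription factors of the follicle epithelium, those past 2-fold split by direction. Sox9 and Lhx2, factors of the bulge and outer root sheath lineage, were at least 2-fold higher, Foxn1 was at least 2-fold lower, and the other 24 of 27 were within 2-fold. Sox9 was at 7.18 CPM in control and 45.9 in TP, TP over control being 6.39 (interval 5.38 to 7.63). At 2000 UMIs it was seen in 0.779% and 4.87% of members, and endothelial or immune cells held 4.16 and 6.61 CPM. Its log2 ratio of 2.67 lay between 1.70 and 3.26 under the alternatives.

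Lhx2 was at 35.1 in control and 104 in TP, TP over control being 2.97 (interval 2.73 to 3.23), seen in 7.37% and 16.4% of members at 2000 UMIs, with 10.4 and 5.08 CPM in endothelial or immune cells. In cycling cells without a matrix UMI it was at 32.1 and 45.97. Lgr5, the R-spondin receptor of lower follicle stem and progenitor cells, showed the same order at 45.04 in control and 138 in TP, TP over control being 3.06 (interval 2.84 to 3.29). It was seen in 6.46% and 15.5% of members, 7.05% and 11.05% of cycling cells without a matrix UMI and 0.641% and 0.828% of endothelial or immune cells. Chosen at equal depth, the log2 ratios were 1.61 for Lhx2 and 1.59 for Lgr5.

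Foxn1 was at 58.3 in control and 22.2 in TP, a log2 ratio of -1.39, with 44.7 and 12.2 in endothelial or immune cells. Lef1 had a log2 ratio of -0.74, which was -0.54 with TMM factors, where the median of all genes was 0.035. It was -0.25 with members chosen at equal depth. Cux1, a factor of the matrix and inner root sheath, was at 2151 in control and 1366 in TP, a log2 ratio of -0.66, and Trps1 had -0.61. Msx1 ran the other way at 41.9 in control and 68.4 in TP, a log2 ratio of 0.71, and 1.17 at equal depth. Endothelial or immune cells also held less in TP, 242 and 50.6 of Lef1 and 871 and 315 of Cux1. The median of the list was -0.20 against -0.17 for all genes.

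The Hedgehog pathway carries the Shh signal. Ptch1, its receptor and a target gene, was at 204 in control and 236 in TP, a log2 ratio of 0.20. Gli1, a transcription factor that the pathway switches on, was at 39.99 in control and 29.3 in TP, a log2 ratio of -0.45. Gas1, a co-receptor, was at least 2-fold higher at 6.66 in control and 14.1 in TP, and Hhip, a decoy receptor, at least 2-fold lower at 11.9 in control and 5.87 in TP. Both calls depended on the setting. The log2 ratio of Gas1, 1.07, was under 2-fold with 2 matrix genes asked for (0.40), with a pseudocount of 0.1 per 10000 UMIs (0.53), with thinned members (0.84) and without other cell type markers (0.87). That of Hhip, -1.01, was under 2-fold with members chosen at equal depth (-0.28), with the larger pseudocount (-0.46), with TMM factors (-0.81), without called doublets (-0.65), without other cell type markers (-0.72) and without keratin-rich members (-0.92). The other 10 of 12 genes were within 2-fold, and the median was -0.34. In the members that carried Edar alone, Ptch1 reached 413 and 415 CPM, against 173 and 157 with Msx2 alone.

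WNT signals drive matrix growth. Of 26 genes measured, Lgr5 alone was past 2-fold. Axin2, the general WNT target, was at 76.8 in control and 38.5 in TP, just short of 2-fold lower, with 30.1 and 15.3 in endothelial or immune cells. Znrf3, a brake on WNT receptors, was at 595 in control and 358 in TP, a log2 ratio of -0.74, and Wnt4, a ligand, at 162 in control and 136 in TP, a log2 ratio of -0.26. The median was -0.22, close to that of all genes.

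BMP signals promote differentiation of matrix daughters. Id1 and Id4, inhibitors of bHLH factors that BMP induces, stood at 2-fold or more above control, while the other 18 of 20 were within 2-fold with a list median of -0.22. Id1 was at 55.7 in control and 148 in TP, TP over control being 2.65 (interval 2.48 to 2.83), and Id4 at 9.73 in control and 26.03 in TP, TP over control being 2.68 (interval 2.28 to 3.15). In endothelial or immune cells Id1 was at 57.1 and 87.2 and Id4 at 11.4 and 8.39. With a pseudocount of 0.1 per 10000 UMIs the log2 ratio of Id4 was under 2-fold, 0.87 in place of 1.42. Id3 had 182 in control and 287 in TP, a log2 ratio of 0.66. The receptor Bmpr1a was at 292 in control and 226 in TP, a log2 ratio of -0.37. Smad6, an inhibitor of the pathway, was at 46.6 in control and 25.7 in TP, a log2 ratio of -0.86.

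The partners of EDAR were mostly alike. Eda, the ligand, was at 378 in control and 377 in TP, and Edaradd, the adaptor, at 92.1 in control and 70.4 in TP, a log2 ratio of -0.39. Nfkbia, the NF-κB inhibitor and target, was the 1 of 5 past 2-fold, at 119 in control and 254 in TP, with 380.2 and 546 in endothelial or immune cells. None of 12 Notch genes was past 2-fold. Their median was -0.40, with 11 below 0, against -0.17 and 7550 of 12033 below 0 for all genes. Notch1, the receptor, was at 345 in control and 174 in TP, a log2 ratio of -0.99, and Jag1, a ligand of the matrix and shaft precursors, at 235 in control and 128 in TP, a log2 ratio of -0.87. In endothelial or immune cells Notch1 was at 183 and 84.4 and Jag1 at 103 and 36.6, but the whole list summed to 1226 and 1423 CPM there, against 1358 and 897 in members. With TMM factors the median of the Notch list was -0.20 and that of all genes 0.035.

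Among 15 growth factor genes, Pdgfa, which signals to the dermis, was at least 2-fold higher and Kit, the stem cell factor receptor, at least 2-fold lower. Pdgfa was at 37.1 in control and 78.6 in TP and Kit at 108 in control and 33.3 in TP. Kit was seen in 19.4% and 7.74% of members at 2000 UMIs, and in endothelial or immune cells it stood at 22.9 and 7.88 CPM. Egfr, the receptor of epidermal growth factor, was at 640.2 in control and 427 in TP, a log2 ratio of -0.59, Igf1r at 335 in control and 264 in TP, a log2 ratio of -0.34 and Fgfr2 at 396 in control and 313 in TP, a log2 ratio of -0.34. The median was -0.34.

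The steroid genes matter here because the mice received an androgen. Srd5a1, which makes dihydrotestosterone, was at 29.9 in control and 33.1 in TP, a log2 ratio of 0.15, and Srd5a2 had too few UMIs to be measured. Of 13 genes measured 3 were at least 2-fold higher and 0 lower. Zbtb16, a zinc finger factor that steroid hormones induce, was at 16.6 in control and 71.9 in TP, TP over control being 4.33 (interval 3.85 to 4.87), with 32.2 and 95.3 in endothelial or immune cells. Klf9 was at 15.4 in control and 41.6 in TP against 52.98 and 94.6, and Per1, a clock gene, at 12.8 in control and 25.9 in TP against 27.01 and 37.9. Fkbp5 and Tsc22d3, general responders to glucocorticoid and androgen, were within 2-fold at 0.23 and 0.50. All 3 higher genes were also higher in the TP endothelial or immune cells.

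**Figure D4:**
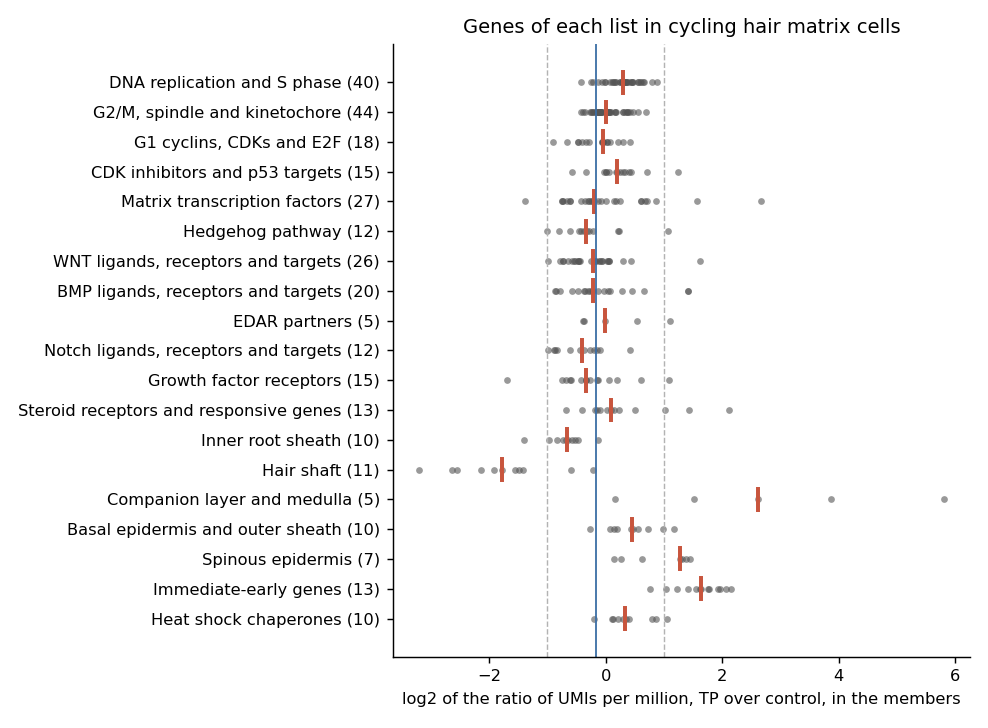
Each dot is 1 gene, placed by its log2 ratio of CPM in members, TP over control (x axis), in rows of gene lists with the number measured in parentheses. Red bars mark list medians, the blue line the median of all genes (-0.17) and dashed lines 2-fold. Hair shaft genes lie left (-1.78), while immediate-early (1.63) and spinous genes (1.28) lie right.

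Hair shaft genes were lower in TP members. Of 11 shaft genes measured, 9 were at least 2-fold lower, 0 higher, and the median log2 ratio was -1.78. Krt35, an early keratin of the shaft cortex and cuticle, was at 324 in control and 121 in TP, seen in 33.3% and 13.4% of members at 2000 UMIs. Krt31, a cortex keratin, was at 46.5 in control and 5.02 in TP, TP over control being 0.108 (interval 0.0878 to 0.131). Krt86 was at 24.2 in control and 6.37 in TP and Dsg4 at 63.9 in control and 21.6 in TP. The list summed to 764 and 300.3 CPM in members. It summed to 391 and 149.99 in endothelial or immune cells and to 445 and 107 in other cycling cells, so it was lower in TP there as well. In matrix cells without a cycling gene, which held most, it summed to 4831 and 4443, nearly alike. The median was -1.80 without keratin-rich members and -1.12 with members chosen at equal depth, where Dsg4 dropped out of the calls at -0.96.

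Of 10 inner root sheath genes, all with a ratio below 1, 1 was past 2-fold. It was Krt26, at 4.86 in control and 1.81 in TP. Krt71 was at 1161 in control and 589.97 in TP, a log2 ratio of -0.98, Krt25 at 1519 in control and 969 in TP, a log2 ratio of -0.65 and Tchh, the trichohyalin of the sheath granules, at 945 in control and 527 in TP, a log2 ratio of -0.84. The list summed to 4733 and 2909 CPM in members, and to 3511 and 2033 in endothelial or immune cells, a gap of like size. Krt27 was nearest at 202 in control and 186 in TP, a log2 ratio of -0.12. The median of -0.66 was -0.46 with TMM factors, where that of all genes was 0.035, and -1.27 with members chosen at equal depth.

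Per cell the same order appeared. At 2000 UMIs, members with at least 2 inner root sheath genes were 87.4% (86.3 to 88.4) in control and 41.6% (39.3 to 44.02) in TP, and those with at least 2 shaft genes 23.4% (22.1 to 24.8) in control and 8.21% (6.95 to 9.62) in TP. Members with neither were 9.61% and 53.5%. The sheath genes were as common in the other cycling cells of control, where the shares were 88.2% and 32.4%, and 71.2% and 20.9% of endothelial or immune cells also held 2 sheath genes. Sheath keratin UMIs were thus widespread in control cells of every kind compared. The shaft genes were found in 15.4% and 3.31% of endothelial or immune cells. The excess of members over these cells was therefore small for the sheath genes in control, and the part of free RNA in the difference between libraries was not tested.

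**Figure D5:**
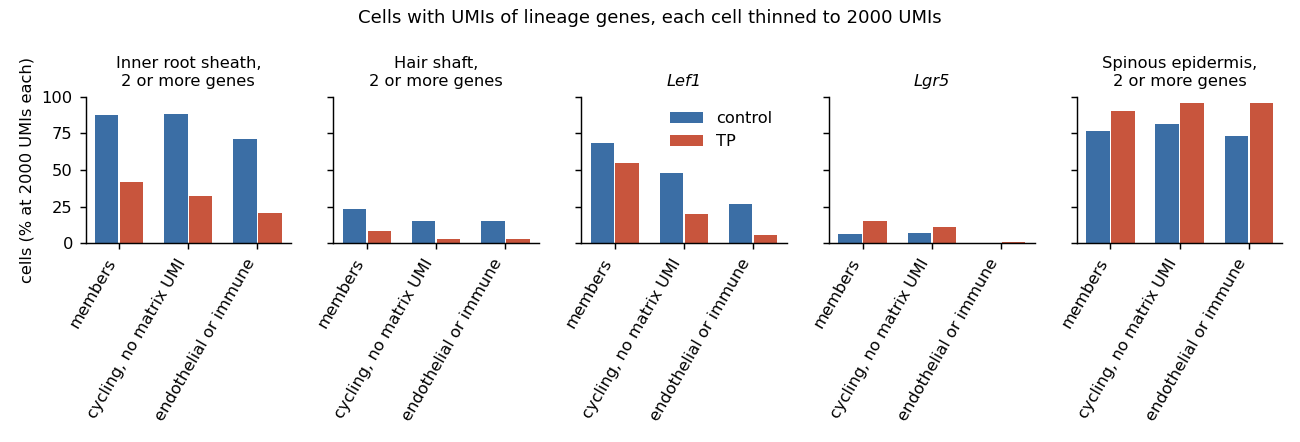
Percent of cells with UMIs of lineage genes (y axis) in members, in cycling cells without a matrix UMI and in endothelial or immune cells, each thinned to 2000 UMIs, for control (blue) and TP (red). The sheath and shaft bars are lower in TP in all 3 kinds of cell, whereas Lgr5 is near 0 in endothelial or immune cells and higher in TP in members (6.46% and 15.5%) and in other cycling cells (7.05% and 11.05%).

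Keratins of the companion layer and of activated outer sheath went the other way. Of 5 genes 4 were at least 2-fold higher, with a median of 2.62. The median was 1.33 with the larger pseudocount, 1.51 with 2 matrix genes asked for, 1.56 without other cell type markers, 1.64 with thinned members and 1.85 with members chosen at equal depth. Krt17, a keratin of outer sheath and matrix, was at 216 in control and 617 in TP, TP over control being 2.86 (interval 2.77 to 2.96), seen in 16.8% and 32.7% of members at 2000 UMIs and at 30.1 and 78.6 CPM in endothelial or immune cells. Krt16 was at 5.62 in control and 82.8 in TP and Krt6a at 3.68 in control and 22.9 in TP, where the endothelial or immune cells held 44.7 and 115 of Krt16 and 3.12 and 19.3 of Krt6a. The log2 ratio of Krt16 was 3.87, and 2.45 at equal depth. Krt75, the companion layer keratin itself, was alike at 29.7 in control and 33.2 in TP, a log2 ratio of 0.16. The keratins that differed are those known for wounded or activated epidermis, and of Krt6a, Krt16 and Krt17 only Krt17 was well above the endothelial or immune level in TP.

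Transcripts of spinous epidermis were higher in TP members, and less so once the keratin-rich ones, chosen partly on Krt1 and Krt10, were left out. Of 7 spinous genes 4 were at least 2-fold higher, Krt1, Krt10, Krtdap and Sbsn, with a median of 1.28. Krt10 was at 1721 in control and 4289.5 in TP, a log2 ratio of 1.32, and endothelial or immune cells held 3279.6 and 7123. Without keratin-rich members the log2 ratio of Krt10 was 0.26 and the list median 0.26, and with members chosen at equal depth the list median was 0.26. The 10 basal genes had a median of 0.45, and of 0.44 without keratin-rich members. Krt14 was at 575 in control and 1131 in TP, a log2 ratio of 0.98 and Krt5 at 469.9 in control and 779 in TP, a log2 ratio of 0.73. In members that were not keratin-rich, Krt14 was at 293 CPM in control and 571 in TP, and Krt5 at 298 and 564. Krt14 was far lower in members than in the other cycling cells, which held 1144 and 3836.

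Per UMI, the keratin-rich members held less of the matrix genes than the rest. Their Hoxc13 level was 75.04 and 43.6 CPM, against 144 and 114 in the other members, and Shh was at 24.1 and 9.02 against 80.05 and 51.2. Keratin-rich members were also deeper. The control library had a median of 7354 UMIs for them against 3322 for the rest, and the TP library 19589 against 10566.5. A deeper cell can meet the rule at a lower level per UMI, so the choice itself favours this order. The part of depth in it was not tested. In TP keratin-rich members were most common among those with Hoxc13 alone, at 22.9%, and least common with 2 or more matrix genes, at 7.92%. In control these shares were 8.04% and 3.84%. Outer bulge genes had 2 of 5 at least 2-fold higher, Cd34 at 1.700 in control and 5.42 in TP and Ccn2 at 3.87 in control and 10.5 in TP, with 34.3 and 35.6 of Cd34 in endothelial or immune cells. Upper follicle genes had 4 of 5 at least 2-fold higher and a median of 1.11. They summed to 263 and 544 CPM in members, 373 and 959 in the other cycling cells and 235 and 587 in endothelial or immune cells, so the difference was found in all 3. Krt79, a keratin of the follicle opening, was at 66.1 in control and 143 in TP, but its log2 ratio was -0.020 at equal depth.

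Transcripts of other cell types were unequal between the libraries, and those of fibroblasts were the most abundant of them. Fibroblast genes summed to 412 and 1095 CPM in members and to 289.8 and 1393 in endothelial or immune cells, and 5 of 6 measured were at least 2-fold higher in TP. Col1a1, a fibrillar collagen, was at 19.2 in control and 187 in TP against 42.6 and 369.9. Without members holding 3 markers of another cell type its log2 ratio was 1.23 in place of 3.29, which is lower by construction since fibroblast genes are among these markers, and with members chosen at equal depth it was 4.29. The list median was 2.61, and 1.12 and 3.39 under the same alternatives. Papilla genes went the other way, 92.8 and 45.6 against 527 and 87.96, with 4 of 5 measured at least 2-fold lower, and all 5 are genes the rule used to keep cells out. Of 5 melanocyte genes Tyr was at least 2-fold lower, at 25.8 in control and 9.63 in TP, with a list median of -0.64. The median was -1.94 without other cell type markers, which include these genes, and -2.61 at equal depth. The melanocyte list summed to 233 and 163 CPM in members against 134 and 25.9 in endothelial or immune cells. Of 4 endothelial markers Pecam1 alone was measured, at 2.88 in control and 2.67 in TP, Cdh5, Emcn and Cldn5 had too few UMIs, and all 4 summed to 3.97 and 4.700 CPM in members against 585 and 443 in endothelial or immune cells. None of 4 Schwann cell genes had enough UMIs. Of 4 immune genes measured 3 were at least 2-fold higher, Tyrobp, Fcer1g and Cd74, the list of 6 summing to 26.6 and 50.2 CPM, with a median of 1.05 that was -1.78 at equal depth. Acta2, Myh11 and Tagln of smooth muscle were at least 2-fold higher, summing with Rgs5 to 17.6 and 51.2 CPM, against 237 and 76.5 in endothelial or immune cells. With 2 matrix genes asked for, the direction turned for Acta2 (-0.57) and Myh11 (-1.32), and the list median was -0.57. The part of these cell types in the results was not tested.

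Immediate-early genes, the first to be transcribed after a stimulus and known to be induced by tissue dissociation, were higher in TP members. Of 13, 12 were at least 2-fold higher and the median was 1.63. Fos was at 359 in control and 1230.2 in TP, TP over control being 3.43 (interval 3.34 to 3.52), seen in 28.7% and 64.6% of members at 2000 UMIs. Egr1 was at 201 in control and 769 in TP, Atf3 at 131 in control and 546 in TP and Btg2 at 66.6 in control and 295 in TP. Jun, the member within 2-fold, was at 728 in control and 1228 in TP, a log2 ratio of 0.75. The same list summed to 3236 and 7708 CPM in the other cycling cells and to 5441 and 11690.2 in endothelial or immune cells, against 2259 and 6160.2 in members. The difference was thus found in every kind of cell compared, and each library was dissociated once, so treatment and handling cannot be told apart.

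Of 10 heat shock chaperones 1 was at least 2-fold higher, Hspb1, at 545 in control and 1136 in TP, and its log2 ratio was 0.47 without keratin-rich members. Hspa1a, the stress-induced chaperone, was the 1 gene below 0, at 205 in control and 178 in TP, a log2 ratio of -0.20. The other 9 were above 0, and the list median was 0.33 against -0.17 for all genes. The chaperones summed to 5388 and 7363 CPM in members and to 5351 and 6646 in endothelial or immune cells. Of 5 interferon genes 1 was past 2-fold, Cxcl10, a chemokine, at 10.4 in control and 35.3 in TP with 13.5 and 33.3 in endothelial or immune cells, and Isg15 was within 2-fold at 0.21. The interferon list summed to 67.99 and 96.7 CPM in members, and to 63.2 and 70.04 without keratin-rich ones. Its median of 0.21 was then -0.13. The chaperones thus leaned higher in TP, and neither list had a median as large as the 1.63 of the immediate-early genes.

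The 15 highest ratios of TP over control among genes with at least 200 UMIs were those of Krt6b, Atp6v1b1, Krt16, Fosl1, Sprr1b, Slc7a2, Col1a1, Lor, Col1a2, Synpo2, Col27a1, Dscaml1, Flg, Cstdc5 and Hrnr. Atp6v1b1, a subunit of the proton pump, was at 0.283 in control and 12.6 in TP in members, 0.458 and 9.26 in other cycling cells and 0 and 0 in endothelial or immune cells. Slc7a2, a transporter of arginine and lysine, was at 5.76 in control and 60.1 in TP, TP over control being 10.4 (interval 8.66 to 12.7). It was at 4.86 and 26.97 in other cycling cells, 3.99 and 59.8 in matrix cells without a cycling gene and 13.5 and 10.2 in endothelial or immune cells. Dscaml1, a cell adhesion molecule, was at 0.992 in control and 8.86 in TP. It was at 0.733 and 6.01 in other cycling cells and 0 and 0.763 in endothelial or immune cells. These 3 genes were well above the endothelial or immune level in TP, and all 3 were also higher in TP in the other cycling cells. At equal depth their log2 ratios in members were 5.33, 3.59 and 2.84. With a pseudocount of 0.1 per 10000 UMIs these were 1.14, 2.15 and 0.78, the last under 2-fold.

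Fosl1, an AP-1 factor, was at 2.12 in control and 24.2 in TP, with 7.27 and 21.4 in endothelial or immune cells. The cornified envelope genes Lor, Flg, Hrnr and Sprr1b were higher in TP endothelial or immune cells than in TP members. Flg, filaggrin, was at 8.92 in control and 74.1 in TP in members against 23.9 and 324. Without keratin-rich members the log2 ratio was 1.97 in place of 3.05 for Flg, 1.31 in place of 3.01 for Hrnr, 1.96 in place of 3.28 for Lor, 2.17 in place of 3.38 for Sprr1b and 3.70 in place of 5.81 for Krt6b. Col1a2 was at 25.6 in control and 240.1 in TP against 57.1 and 532. For these genes the TP level also exceeded the control level outside the members.

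Among the 15 lowest ratios were those of Krt31, Krtap7-1, Corin, Krt33a, Krt83, Ndnf, Tmem132c, Dcc, Krtap11-1, St8sia1, Cfap299, Fgf7, Nrg3 and Krt36. Of these, 6 encode keratins or keratin-associated proteins of the hair shaft. Corin is 1 of the 5 papilla genes that the rule used to keep cells out, so the choice shaped its level. Krtap7-1 was at 35.8 in control and 4.88 in TP, and at 486 and 498 in matrix cells without a cycling gene, where both libraries were alike. Krt33a was at 24.8 in control and 3.93 in TP, and at 257 and 344 in those cells. Endothelial or immune cells held 21.8 and 6.10 of Krtap7-1, 17.7 and 3.56 of Krt33a and 23.9 and 4.83 of Krt31. These 3 were thus lower in TP there as well, and their levels in TP members were near those of the TP endothelial or immune cells. Nrg3, a ligand of ERBB4, was at 49.7 in control and 11.03 in TP, TP over control being 0.222 (interval 0.192 to 0.255), with 17.7 and 6.101 in endothelial or immune cells. Corin, Dcc, Fgf7, St8sia1, Ndnf and Tmem132c were higher in endothelial or immune cells than in members in both libraries. Dcc, the netrin receptor, was at 18.9 in control and 3.71 in TP in members and 181 and 6.86 in those cells.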

How the data were processed

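Skin of 15 mice per group was pooled and dissociated, and per the labels the authors ran Cell Ranger 8.0.1 against mm10. The authors deposited raw UMI counts, 1 whole number for each gene in each barcode, with no scaling. The mt and gene limits belong to the rule and were applied here. Members and gene lists were chosen with earlier results of these data known.

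UMIs were summed over the members of a library and divided by their total (CPM, per 1000000 UMIs). Log2 ratios used a pseudocount of 1 UMI per library, for genes reaching 100 UMIs over both libraries, and a gene counted as different at 2-fold or more. Sums carry exact Poisson intervals at 95%, shares those of Clopper and Pearson, and ratios those of the binomial split of UMIs between libraries. With 1 library per group no test was made. Genes were named as the 15 highest and 15 lowest ratios among genes with at least 200 UMIs, the largest 10 over each other kind of cell, the genes of the rule, and called or abundant genes of each list. Clone-named genes were left out of these. Comparison cells were cycling cells without a matrix UMI, matrix cells with 2 or more matrix genes and no cell cycle gene, and endothelial or immune cells. The DoubletFinder procedure was rewritten, with artificial doublets at 25% of the merged data, 30 components, the nearest 1% and 7.5% of barcodes called. The alternative on other cell types counted types outside epidermis and follicle, since spinous and basal transcripts were in nearly all cells. Python 3.11.15, numpy 2.4.6, scipy 1.17.1, pandas 2.3.3 and scikit-learn 1.9.0 were used, and edgeR 4.0.16 in R 4.3.3 for TMM factors only. Scripts were tested on simulated data. Promoters came from RefSeq GRCm38.p6, matched by symbol, which is the assembly of mm10. Some genes of the lists are not reported here.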

Additional observations from a re-analysis of the deposited data

How the results depend on the processing

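The ratio of shares, TP over control, was 0.788. It was 0.327, 0.377 and 0.427 with cells thinned to 1000, 2000 and 5000 UMIs, cells below each depth being left out. It was 0.948 (0.8896 to 1.01) with 4 cell cycle genes, and 0.907 and 0.744 with mitochondrial limits of 5% and 20%. Without members holding other cell type markers it was 0.615, and without keratin-rich members 0.721, both lower by construction. It reversed per cycling cell (1.33) and with 2 matrix genes (1.29), both at full depth. It moved little without called doublets (0.823) and without Edar (0.787). Against 401 genes higher and 427 lower, a pseudocount of 0.1 per 10000 gave 114 and 59, a filter of 1 UMI 1442 and 3648, a filter of 500 UMIs 205 and 138, thinned members 177 and 217, 2 matrix genes 214 and 264, no other cell type markers 235 and 322, TMM factors 585 and 252, and members chosen at 2000 UMIs 165 and 329. The pseudocount and the filters of 1 and 500 UMIs change which low genes are counted by construction. The other settings differ in scaling, cells or UMIs, and the number of genes measured under each is not given here. Their counts are therefore not shares of 12033, and the cause of the changes was not tested. The removal of keratin-rich members and the choice at 2000 UMIs were added after the data were seen.

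The S phase to G2/M ratio, TP over control, was 1.11 and reversed to 0.966 with members chosen at 2000 UMIs. Of list medians past 2-fold, that of immune genes reversed to -0.073 without other cell type markers and -1.78 at equal depth, and that of smooth muscle genes to -0.57 with 2 matrix genes. Among the single genes past 2-fold that were recomputed, those whose direction turned were Krt79 (-0.020), Tyrobp (-0.15), Fcer1g (-0.75) and Cd74 (-1.78) at equal depth, Dpt (-0.27) and Cd74 (-0.073) without other cell type markers, and Fcer1g (-0.89), Acta2 (-0.57) and Myh11 (-1.32) with 2 matrix genes. The setting without other cell type markers removes cells by genes of the immune and fibroblast lists themselves, 4.01% of control and 25.04% of TP members. It therefore favours lower ratios of the immune list, Cd74 and Dpt by construction. Values within 2-fold also changed sign under some settings and are not listed. With the larger pseudocount, which shrinks the ratios of low genes by construction, the log2 ratios of Synpo2, Dscaml1, Ndnf, Tmem132c, St8sia1, Cfap299, Krt36, Acsm3, Pm20d1, Scube1, Bbc3, Hhip, Gas1, Id4, Pdgfa, Per1, Krt26, Cd34, Ccn2, Tyr, Fgf10, Trpm3, Rspo2, Tyrobp, Fcer1g, Cd74, Acta2 and Myh11 were under 2-fold.

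No paired analysis was possible because each group is 1 library and no result comes from a test. The smaller depth of control members limits what can be seen per cell there.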

Other observations

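The kinds of member set by the matrix gene they carried differed in level. Members with Edar alone had the highest Lgr5 level of the 5 kinds in both libraries, 68.04 and 249.8 CPM, next to 62.02 with Msx2 alone in control and 211 with Hoxc13 alone in TP, and the lowest were 16.6 and 18.5 with Shh alone. The replication genes of members with Edar alone summed to 3176 and 3931, and the next highest were 2672 with Msx2 alone in control and 3281 with 2 or more matrix genes in TP. Members with Hoxc13 alone held the most shaft transcripts in both libraries, 1142 and 437. Inner root sheath transcripts were most common with Msx2 alone in control, 6332, and with Shh alone in TP, 5322. Gata3, a factor of the inner root sheath, was highest with Shh alone in both, 506 and 549.6. The TP set with Shh alone held 64 cells.

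Among gene families, 77 ribosomal protein genes summed to 121760 CPM in control and 154511 in TP members, with a median log2 ratio of 0.37 and none past 2-fold. The 55 replication-dependent histone genes measured had a median of 0.25 with 1 at least 2-fold higher. The 13 mitochondrial genes had -0.40, with 2 at least 2-fold lower, and median mitochondrial shares of members were 4.55% and 3.06%.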
